A study of Mus musculus with 4 samples.

Results

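Complement genes were examined as a gene set across the cell classes of a mouse liver tumour: 34 genes of complement components, regulators and receptors were listed by symbol, and 33 of them were found among the 17813 genes of the expression table. Cfd was not analysed here. Of 25 further genes of the pathway that were listed for context, 20 were in the table. The study profiled single cells from hepatocellular carcinoma tissue of C57BL/6 mice aged 5 months, from 2 samples of the genotype Miz1F/F and 2 samples of the genotype Miz1ΔHep. Every mouse in both groups had received DEN at 25 mg/kg by intraperitoneal injection in week 2 of life and then CCl4 every week, at 0.5 ml/kg in corn oil by the same route. The livers were digested and droplet libraries were made with the 10x Genomics single-cell chemistry, version 2, which reads the 3′ end of each transcript. Neither the Cre line behind the Miz1ΔHep deletion nor whether a sample was 1 mouse or a pool is given in the sources used here.

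The table held 24802 cells in 4 groups of cell barcodes, told apart by the number at the end of each barcode and called barcode sets 1 to 4 here. No source used here ties a barcode set to a sample or to a genotype, so the genotypes were not compared, the sets are not replicates of a group, and no p-value is given. The sets held 2574, 6224, 4825 and 11179 cells, with 9093921 to 35033778 UMIs (unique molecular identifiers, 1 per captured transcript) and a median of 906 to 2648 UMIs per cell. Barcodes found in more than 1 set numbered 373, and sets 2 and 3 shared 115 of them, of which 74 fell into the same cell class in both, against 11 of 109 for sets 2 and 4. Whether sets 2 and 3 are separate libraries was not tested, and agreement between them may not be independent. With every shared barcode left out, the counts of called members in the 5 class comparisons below kept their values, except that members higher in hepatocyte-like cells than in the Krt8/Sox9 epithelial cluster numbered 4 and not 3. Cells were clustered without the complement genes, and 16 classes were named from marker genes, so that neither the clusters nor their names used a member. No label marks tumour cells. Hepatocyte-like cells numbered 1197, or 4.83% of all cells, and their albumin (Alb) level of 58250 UMIs per 1000000 was the highest of any class. A second epithelial class of 795 cells, called the Krt8/Sox9 epithelial cluster, had Sox9 at 453.4 on the same scale, Alb at 7445 and the bile duct keratin Krt19 at 1.25, against 544.5 for Krt19 in cholangiocyte-like cells.

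Complement is a cascade of plasma proteins that tags particles for uptake and can end in a pore in the target membrane. The classical pathway starts with the C1 complex, the lectin pathway with mannose-binding lectins, ficolins and collectins, and the alternative pathway with C3 and factor B, and all of them meet at the cleavage of C3. Most of the plasma proteins are made in the liver, macrophages are the known main source of C1q, and cells carry membrane regulators that protect them and receptors that sense the cleavage products.

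Promoter sequences are shown first for 6 members whose levels were highest in Kupffer cell-like or in hepatocyte-like cells, because the results turn on that split. Each window runs from 250 bases before to 50 bases after the gene's start in RefSeq (assembly GRCm38.p6), 25 of the 33 members had such a window, and letters in capitals mark a motif match. The motifs were GAGGAA, the core bound by PU.1 (a myeloid transcription factor), searched also as its reverse TTCCTC, and GTTAAT, a part of the site of HNF1 (a hepatocyte transcription factor), searched also as ATTAAC. The Kupffer group is shown by C1qb at chr4:136886151-136886450 on the minus strand, C1qc at chr4:136892865-136893164 on the minus strand, Fcna at chr2:25627925-25628224 on the minus strand and C6 at chr15:4726960-4727259 on the plus strand. The hepatocyte group is shown by C8a at chr4:104876349-104876648 and Hc at chr2:35061363-35061662, both on the minus strand.
C1qb: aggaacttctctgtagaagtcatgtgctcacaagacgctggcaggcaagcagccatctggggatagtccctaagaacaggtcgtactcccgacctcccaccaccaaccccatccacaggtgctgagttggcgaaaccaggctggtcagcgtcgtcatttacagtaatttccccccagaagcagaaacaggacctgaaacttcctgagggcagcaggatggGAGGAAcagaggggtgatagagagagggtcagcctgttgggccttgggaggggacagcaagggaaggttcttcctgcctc
C1qc: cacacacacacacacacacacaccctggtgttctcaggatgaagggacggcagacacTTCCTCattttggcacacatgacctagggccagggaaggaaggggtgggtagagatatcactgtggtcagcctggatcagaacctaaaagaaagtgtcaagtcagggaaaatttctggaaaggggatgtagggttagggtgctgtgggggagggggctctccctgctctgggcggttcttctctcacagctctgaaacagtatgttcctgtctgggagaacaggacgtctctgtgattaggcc
Fcna: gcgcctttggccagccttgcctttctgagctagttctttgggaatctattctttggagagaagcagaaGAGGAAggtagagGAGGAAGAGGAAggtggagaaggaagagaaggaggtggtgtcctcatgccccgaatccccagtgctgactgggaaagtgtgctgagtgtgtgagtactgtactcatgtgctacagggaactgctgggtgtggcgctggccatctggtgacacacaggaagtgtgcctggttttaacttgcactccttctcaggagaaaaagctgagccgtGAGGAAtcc
C6: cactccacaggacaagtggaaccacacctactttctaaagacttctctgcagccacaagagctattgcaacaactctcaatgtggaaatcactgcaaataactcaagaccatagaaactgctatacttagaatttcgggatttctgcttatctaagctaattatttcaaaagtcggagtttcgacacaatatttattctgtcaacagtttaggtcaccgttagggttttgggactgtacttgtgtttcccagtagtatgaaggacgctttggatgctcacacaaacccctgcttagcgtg
C8a: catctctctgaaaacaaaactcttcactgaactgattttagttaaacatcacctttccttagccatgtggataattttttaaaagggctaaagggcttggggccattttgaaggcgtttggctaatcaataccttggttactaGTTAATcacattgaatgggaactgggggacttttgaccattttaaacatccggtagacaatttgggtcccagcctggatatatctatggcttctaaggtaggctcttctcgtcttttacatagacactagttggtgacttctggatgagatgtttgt
Hc: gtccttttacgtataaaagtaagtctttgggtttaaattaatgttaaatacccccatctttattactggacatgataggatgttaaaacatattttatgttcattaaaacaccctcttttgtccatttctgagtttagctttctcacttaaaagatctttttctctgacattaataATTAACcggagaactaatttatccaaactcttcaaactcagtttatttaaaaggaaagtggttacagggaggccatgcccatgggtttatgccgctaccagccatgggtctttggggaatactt
The capitals in C1qb, C1qc and Fcna are matches to the PU.1 letters, those in C8a and Hc are matches to the HNF1 letters, and the C6 window held neither. In C1qb the match began at position -30 from the gene's start, in C8a at -107 and in Hc at -74. Among members with a window, the PU.1 letters occurred in 4 of 5 genes highest in Kupffer cell-like cells, in 0 of 9 highest in hepatocyte-like cells and in 2 of 11 others, against 28.1% of 32544 windows in the RefSeq table. The HNF1 letters occurred in 1 of 5, 4 of 9 and 3 of 11, against 7.13% of all windows. Letters for other transcription factors were searched too but not marked. Those of C/EBP occurred in 0 of 5, 1 of 9 and 3 of 11, against 10.8% of all windows. Those of NF-kB occurred in 0, 0 and 1, against 5.56%, and those of STAT in 0, 2 and 2, against 8.33%. These matches describe the letters and are not measured binding sites.

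Levels below are UMIs summed over the cells of a class in 1 barcode set, per 1000000 UMIs of the class (CPM), and a class level is the median over the sets with at least 20 of its cells. Because the 3′ end is counted and levels were not scaled for transcript length, classes are compared for 1 gene and genes are not ranked against each other. Hepatocyte-like cells had the highest level of 10 of the 33 members, which were Mbl1, Mbl2, Masp2, Hc, C8a, C8b, C8g, C9, Cfi and C4bp. The stellate/fibroblast/mesothelial-like class had the highest level of 8 (C1ra, C1s1, C2, C4b, Colec11, C3, Cfb and Serping1), Kupffer cell-like cells of 6 (C1qa, C1qb, C1qc, Fcna, Cfp and C6) and endothelial cell-like cells of 4 (Masp1, Cd55, Cd59a and Cd46). The other 5 members were highest in 1 class each: Clu in the Krt8/Sox9 epithelial cluster, Cr2 in B cell-like cells, Cr1l in NK cell/ILC1-like cells, C3ar1 in basophil/mast cell-like cells and C5ar1 in neutrophil-like cells. The leading class was the same in every set that held it for 9 of the 10 hepatocyte members, with C8b the exception at 2 of 4 sets, and for 5 of the 6 Kupffer members, with C1qb the exception at 3 of 4 sets. Cd46 and C5ar1 were highest in their named class in 3 of 4 sets, and Cr1l in 2 of 4. The share of all genes highest in each class was not computed, so these counts are not set against a background.

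**Figure D1:**
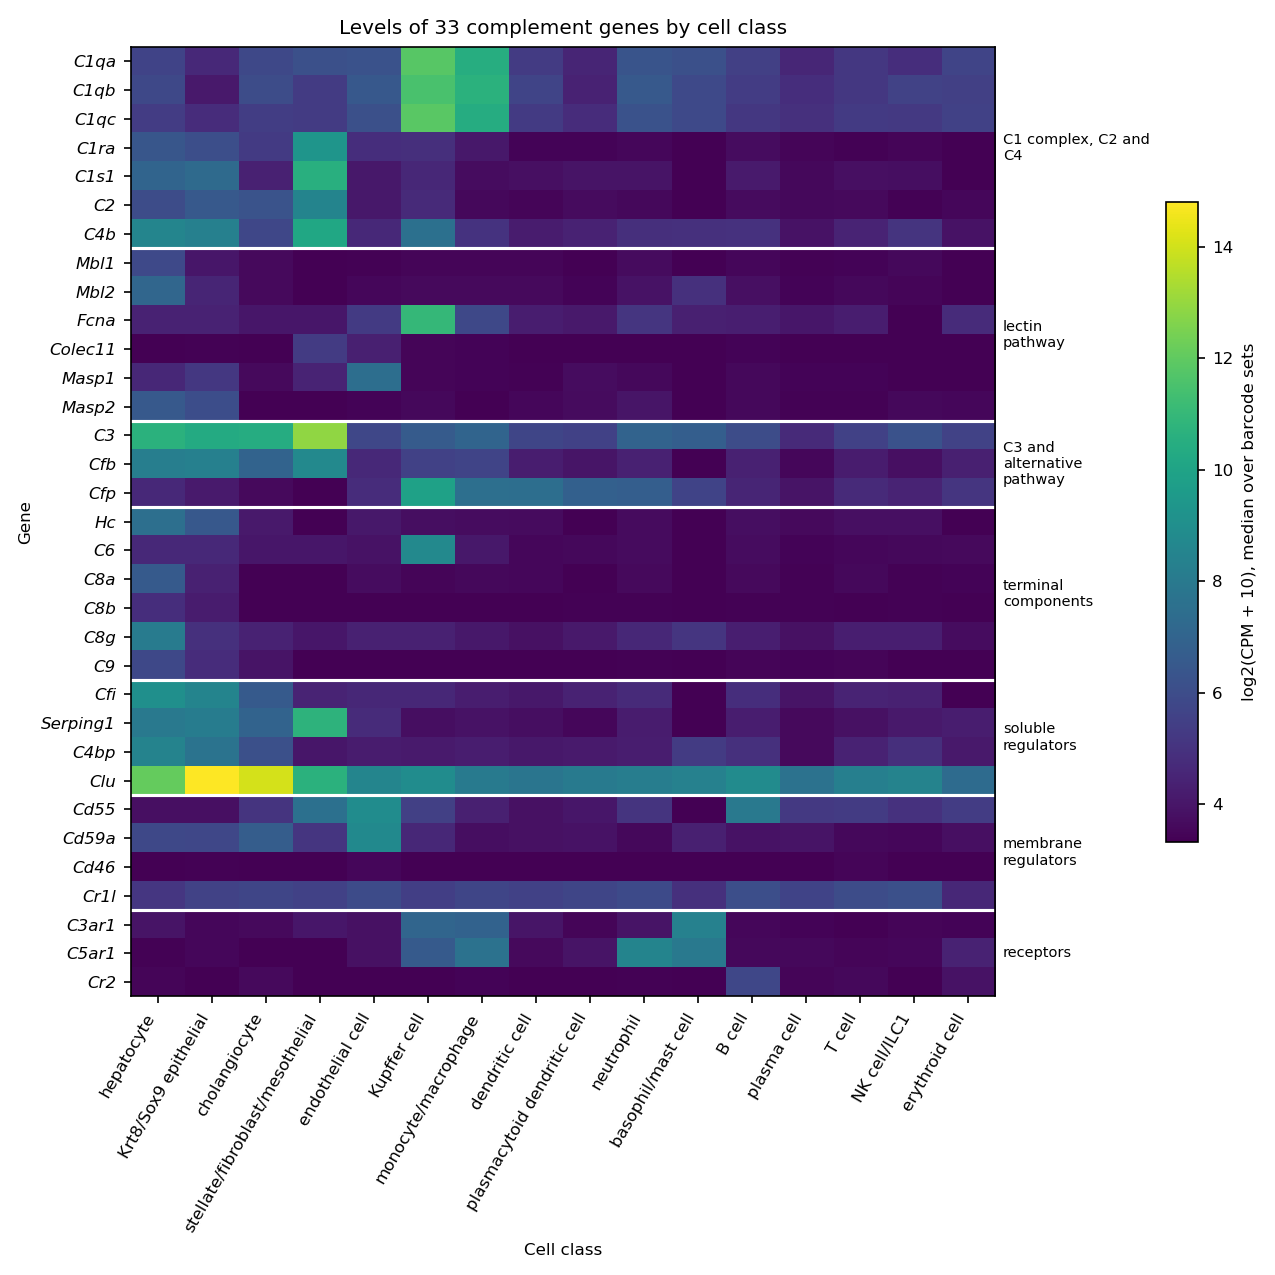
Level of 33 complement genes (rows, grouped by 7 roles) in 16 cell classes (columns), shown as log2(CPM + 10) of the median over barcode sets. C1q, Fcna, Cfp and C6 were highest in Kupffer cell-like cells, Mbl1, Mbl2, Hc, C8, C9, Cfi and C4bp in hepatocyte-like cells, and C3, Serping1 and the C1 proteases in the stellate/fibroblast/mesothelial-like class.

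The 3 chains of C1q, which bind antibody and dying cells and start the classical pathway, had their highest median levels in the Kupffer cell-like class, macrophages that reside in the sinusoids. C1qa was at 4731, 3052, 3065 and 4164 CPM in barcode sets 1, 2, 3 and 4, C1qc at 5306, 3638, 3263 and 3817, and C1qb at 4931, 1197, 1643 and 4099. The C1qb level thus varied more between sets than the levels of the other chains, with sets 2 and 3 low. In monocyte/macrophage-like cells, C1qa was at 1492, 1361, 1109 and 1735 CPM, below every Kupffer value, and C1qb at 1978, 1231, 998.9 and 2312 CPM, which overlapped them. T cell-like cells, a class that should lack C1q, had C1qa at 26.5, 27.3, 8.93 and 86.5 CPM. The genes lie side by side on the minus strand of chromosome 4 (GRCm38, GENCODE vM21), with C1qb at 136880129 to 136886187, C1qc at 136889804 to 136893065 and C1qa at 136895917 to 136898803.

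Counted per cell, the share with C1q was higher in the Kupffer class than in the monocyte/macrophage class. The latter held a 656-cell cluster with C1qa and C1qc near the Kupffer level and C1qb above the whole Kupffer class in each set. It also held a cluster of 1695 cells with less C1q, and both clusters are described below. After each cell was thinned to 500 UMIs, C1qa had a UMI in 79.2% of Kupffer cell-like cells (95% exact interval 77.4 to 81.0), in 26.7% of monocyte/macrophage-like cells and in 2.26% of T cell-like cells. The intervals cover counting error only, and before thinning the shares were 89.1%, 40.1% and 6.42%, at median depths of 1220, 2797 and 1168 UMIs. All 3 chains were found together in 819 of 1978 thinned Kupffer cell-like cells (41.4%), in 350 of 2294 monocyte/macrophage-like cells (15.3%) and in 1 of 2216 T cell-like cells. At least 1 chain was found in 94.8%, 38.7% and 6.00% of these cells. C1qa UMIs per C1qb UMI came to 0.959, 2.55, 1.87 and 1.02 in the Kupffer class in sets 1, 2, 3 and 4, and to 0.754, 1.11, 1.11 and 0.75 in the monocyte/macrophage class. The ratio was higher in the Kupffer class within each set and highest in sets 2 and 3.

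The C1 proteases and the components they cleave had other sources. C1ra and C1s1, the serine proteases of the C1 complex, were at 622.2 and 1510 CPM in the stellate/fibroblast/mesothelial-like class and at 74.1 and 121.5 CPM in hepatocyte-like cells. C2, the protease of the classical C3 convertase, was at 356.4 CPM in the first class and at 81.9 and 53.0 CPM in the Krt8/Sox9 epithelial cluster and hepatocyte-like cells. C4b, the mouse gene of complement C4, was at 328.0, 377.7, 348.0 and 385.1 CPM in hepatocyte-like cells and at 128.3, 254.0, 209.8 and 151.8 CPM in Kupffer cell-like cells, so every value of the whole hepatocyte class lay above every Kupffer value. Hepatocyte cluster 17, with 508 of the 1197 cells, had C4b at 19.6, 94.9, 147.9 and 36.4 CPM, below the Kupffer value of each set. Monocyte/macrophage-like cells had a median of 22.0 CPM of C4b.

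Members of the lectin pathway were spread over 4 classes. Mbl1 and Mbl2, the mannose-binding lectins, were highest in hepatocyte-like cells, with Mbl1 at 42.6, 34.2, 51.8 and 53.6 CPM and Mbl2 at 173.4, 175.9, 7.41 and 85.2 CPM. Mbl2 was thus low in set 3, which held 51 of the hepatocyte-like cells. Masp2, the protease that cleaves C4 and C2 for the lectins, was at 85.1, 79.9, 81.5 and 117.1 CPM there, a range that overlapped that of the Krt8/Sox9 epithelial cluster (median 56.0 CPM). Masp1, the companion protease, was highest in endothelial cell-like cells at 164.1, 188.9, 144.9 and 166.7 CPM, against 14.2 CPM in hepatocyte-like cells. Fcna, ficolin A, was at 2038, 2535, 2028 and 1602 CPM in Kupffer cell-like cells, and the next class, monocyte/macrophage-like cells, had a median of 46.6 CPM. Colec11, a collectin, had 131 UMIs in all cells and was at 30.2 CPM in the stellate/fibroblast/mesothelial-like class, from 5 UMIs. Endothelial cell-like cells were next, with a median of 9.99 CPM (0 to 24.9 over the sets). Their cluster 18 held 63 of the UMIs, at 29.2 CPM pooled. The second-best marker list of cluster 18 was stellate/fibroblast/mesothelial, with a score of 0.83 against 2.83 for endothelial cells. Whether cells of that second kind lie within the cluster was not tested. In hepatocyte-like cells Colec11 had 0 UMIs, which allows a level of up to 0.599 CPM.

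C3, the component on which all routes converge, was measured at high levels in every epithelial class. It was at 1630, 1089, 1673 and 1584 CPM in hepatocyte-like cells, and in sets 2, 3 and 4 the Krt8/Sox9 epithelial cluster had 1292, 1711 and 1207 CPM, a range that overlapped it. Cholangiocyte-like cells had 1599 and 1124 CPM in sets 3 and 4. Cfb, factor B of the alternative C3 convertase, was at 233.4, 228.3, 362.8 and 344.1 CPM in hepatocyte-like cells and at 313.4, 312.9 and 414.9 CPM in the Krt8/Sox9 epithelial cluster. Cfp, properdin, which stabilises that convertase, was instead highest in Kupffer cell-like cells, at 1174, 910.6, 897.4 and 968.1 CPM, with 172.5 CPM in monocyte/macrophage-like cells. On chromosome 17, Cfb (34856374 to 34862518) and C2 (34862604 to 34898265) adjoin, with 86 bases between them.

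The terminal components form the membrane attack complex. Hc, the mouse C5 gene, was at 138.7, 237.6, 185.1 and 161.7 CPM in hepatocyte-like cells, C8g at 227.0, 290.0, 244.4 and 384.7 CPM, and C8a at 48.9, 76.3, 118.5 and 93.4 CPM. C9, the pore-forming component, was at 55.2, 37.9, 96.3 and 32.4 CPM, and C8b, with 160 UMIs in all cells, at a median of 18.6 CPM. C6 did not share this pattern. Its level was 385.0, 546.8, 442.8 and 241.9 CPM in Kupffer cell-like cells and 15.2 CPM in hepatocyte-like cells, so that Kupffer values lay above all others in every set. A C6 UMI was found in 14.9% of thinned Kupffer cell-like cells and in 0.135% of T cell-like cells.

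**Figure D2:**
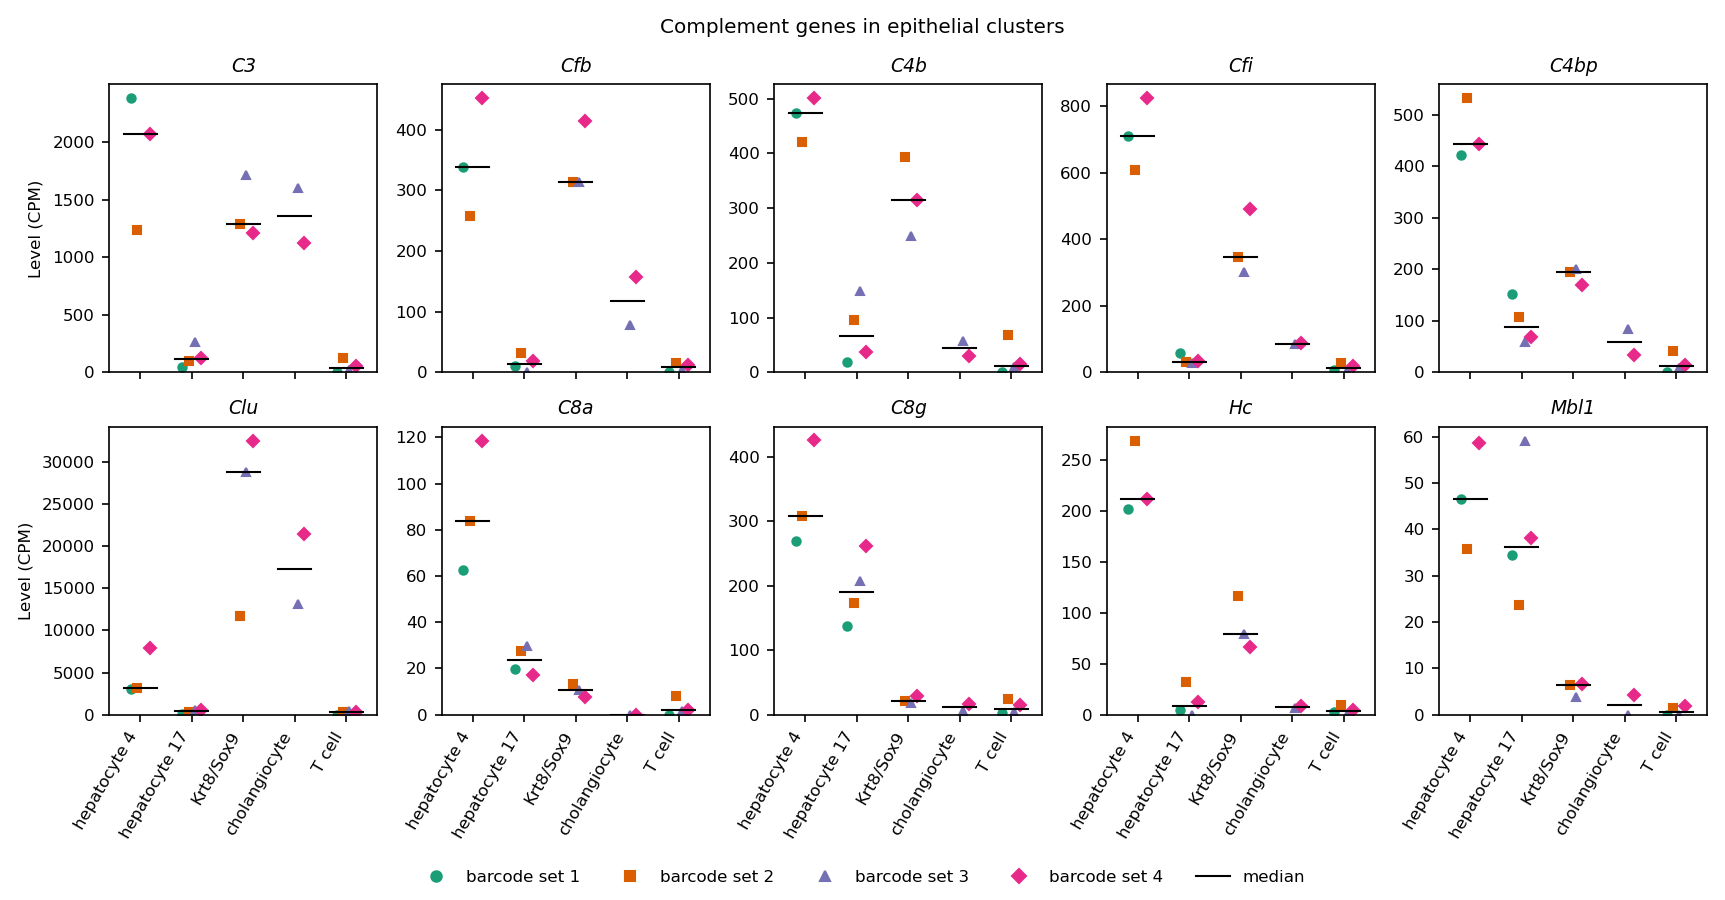
CPM (linear axis) of 10 complement genes in hepatocyte-like clusters 4 and 17, the Krt8/Sox9 epithelial cluster, cholangiocyte-like cells and T cell-like cells, with 1 marker per barcode set and a line at the median. C3, Cfb, C4b, Cfi and Clu were lower in cluster 17 than in cluster 4, while the Krt8/Sox9 epithelial cluster had less C8a, C8g and Mbl1 than both hepatocyte clusters and the most Clu.

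Among soluble regulators, Cfi, the protease that inactivates C3b and C4b, was at 501.4, 531.8, 451.7 and 627.2 CPM in hepatocyte-like cells, and its cofactor C4bp at 335.8, 476.3, 325.8 and 349.7 CPM. In the Krt8/Sox9 epithelial cluster Cfi was at 348.2, 302.3 and 490.1 CPM and C4bp at 195.0, 199.9 and 169.2 CPM, so that C4bp did not overlap between the classes. Serping1, the C1 inhibitor, had 237.0 CPM in hepatocyte-like cells and 271.1 CPM in the Krt8/Sox9 epithelial cluster. Clu, clusterin, which binds the forming attack complex, was at 11700, 28790 and 32500 CPM in the Krt8/Sox9 epithelial cluster, at 13150 and 21440 CPM in cholangiocyte-like cells, and at 2106, 2763, 6353 and 6035 CPM in hepatocyte-like cells. The first pair of classes lay above all hepatocyte values. Thinned to 500 UMIs, 96.6% of cells of the Krt8/Sox9 epithelial cluster, 98.9% of cholangiocyte-like cells and 50.8% of hepatocyte-like cells had a Clu UMI. T cell-like cells had Clu at 15.6, 321.5, 412.8 and 287.4 CPM, with set 1 low. Set 1 also held only 19 cells of the Krt8/Sox9 epithelial cluster, and a link between these values was not tested.

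The stellate/fibroblast/mesothelial-like class rests on 48 cells, of which 42 were in set 3 and 6 in set 2, so its levels come from set 3 and have no check in another set. Its cells carried the fibroblast gene Dcn at 7418 CPM, Col1a1 at 3830 and the mesothelial gene Msln at 1341, while the stellate cell gene Reln was at 12.1 CPM. Pooled over all 48 cells, C3 was at 7704 CPM (95% exact Poisson interval 7296 to 8130), Serping1 at 1694 (1505 to 1900), Clu at 1624 (1440 to 1826) and Cfb at 411.9 (321.7 to 519.6). A C3 UMI was found in 82.2% of its thinned cells (68.0 to 92.0), against 34.5% of hepatocyte-like cells and 3.20% of T cell-like cells. Mbl1, Mbl2, Masp2, Cfp, Hc, C8a, C8b, C9, Cd46, C5ar1 and Cr2 had 0 UMIs in these cells, which allows up to 17.4 CPM each. Clustered more coarsely, at a Leiden resolution of 0.5, the class merged with others into 448 cells and C3 fell to 266 CPM.

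Membrane regulators had their highest levels outside the epithelium. Cd55, which breaks up C3 convertases, was at 415.6, 643.6, 522.2 and 283.2 CPM in endothelial cell-like cells and at 225.9, 235.1, 262.0 and 245.6 CPM in B cell-like cells, with T cell-like cells at 29.8 CPM and Kupffer cell-like cells at 35.4 CPM. The values of the whole endothelial class lay above the B cell values. In set 4, endothelial clusters 5 and 18 were at 203.3 and 169.7 CPM, below the B cell value, and cluster 21 was at 298.4 CPM, above it. Cd59a, which blocks the attack complex, was at 454.0, 398.0, 548.0 and 346.1 CPM in endothelial cell-like cells, against 94.0 CPM in cholangiocyte-like and 46.1 CPM in hepatocyte-like cells. Cr1l (Crry), the main C3 regulator of mouse cells, was low and widespread, with 60.5 CPM in NK cell/ILC1-like, 57.9 in B cell-like, 53.6 in T cell-like and 52.3 in endothelial cell-like cells. Its order among these classes changed between sets. Cd46, whose expression in mice is known to be largely limited to the testis, had 33 UMIs in all cells.

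Of the receptors, C5ar1, the receptor for C5a, was at 502.6, 258.2, 134.3 and 440.5 CPM in neutrophil-like cells and at 310.2, 261.2, 111.0 and 127.6 CPM in monocyte/macrophage-like cells, and these ranges overlapped. The neutrophil class held cluster 0 (1111 cells) with C5ar1 at 860.4, 565.5, 461.0 and 657.5 CPM and cluster 3 (219 cells), led by the granule genes Camp, Elane and Mpo, with 198.1, 71.2, 58.7 and 53.6 CPM. Every value of cluster 0 lay above every monocyte/macrophage value, and those of cluster 3 lay below the monocyte/macrophage value of the same set. Cluster 3 also had raised cycling genes, with a score of 2.34 beside its neutrophil score of 3.67. At Leiden resolution 2.0, Mpo and Elane were among the leading genes of a separate cluster of 170 cells, in which cycling genes scored highest. Whether cluster 3 holds neutrophils alone was not tested. Basophil/mast cell-like cells, 139 in number, had C5ar1 at 243.0, 65.2 and 261.9 CPM in sets 2, 3 and 4. The same class had the highest level of C3ar1, the receptor for C3a, at 437.4, 325.8 and 231.7 CPM, from 53 UMIs (267.7 CPM pooled, 95% exact Poisson interval 200.5 to 350.2). Kupffer cell-like cells had C3ar1 at 134.6, 178.5, 116.5 and 78.0 CPM, below every basophil/mast cell value. Within the monocyte/macrophage class, cluster 7 had C3ar1 at 262.4, 297.4, 270.5 and 220.8 CPM, which overlapped the basophil/mast cell range. Cr2, the B cell receptor for C3d, had 405 UMIs in all cells, and 328 of them were in B cell-like cells, where it was at 30.5, 57.1, 55.2 and 34.6 CPM. At 500 UMIs a cell, 2.15% of B cell-like and 0.0451% of T cell-like cells had a Cr2 UMI.

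**Figure D3:**
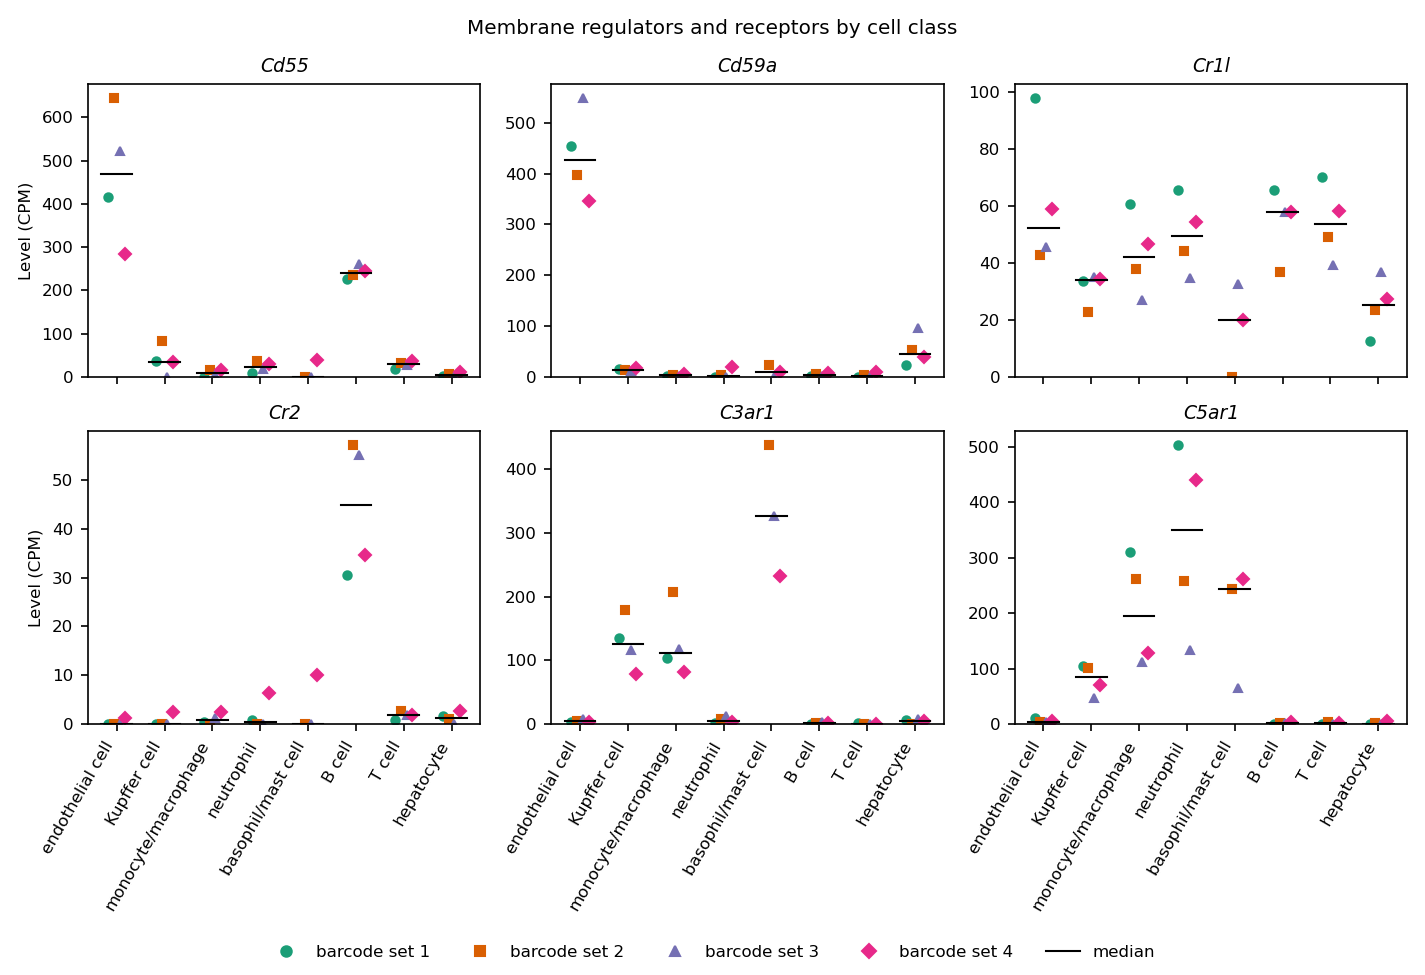
CPM (linear axis) of the membrane regulators Cd55, Cd59a and Cr1l and the receptors Cr2, C3ar1 and C5ar1 in 8 classes, with 1 marker per barcode set and a line at the median. Cd55 and Cd59a were highest in endothelial cell-like cells, C3ar1 in basophil/mast cell-like cells and Cr2 in B cell-like cells.

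Classes were then compared in pairs within each barcode set, by the log2 ratio of CPM + 10, and a gene was called when it differed at least 2-fold in the same direction in every set. Genes averaging under 20 CPM were left untested, and the share of all tested genes that were called is given beside each count. That background includes the genes that formed the clusters, which the members did not. Ratios are medians over sets with the lowest and highest set, and in the 5 comparisons of whole classes the median over all tested genes was between -0.28 and 0.20. Setting it to 0 changed a count of called members only where stated.

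Between hepatocyte-like cells and the Krt8/Sox9 epithelial cluster (sets 2, 3 and 4), 22 members were tested. Higher in hepatocyte-like cells were 3, against 4.81% of 5220 genes: C8g with a log2 ratio of 3.29 (3.21 to 3.35), C8a with 2.57 (1.89 to 2.64) and Mbl1 with 1.93 (1.44 to 2.17). Lower was 1, Clu, with -2.18 (-2.43 to -2.08), against 5.96% of genes. C3 had a ratio of -0.03, Cfb -0.26, C4b 0.29, C1s1 -0.10, Masp2 0.45 and Cfi 0.56, none of which was called. Mbl2 at 2.05 (0.63 to 2.79), Hc at 1.14 (0.97 to 1.17), C9 at 1.25 (0.80 to 1.77) and C4bp (0.68 to 1.25 over the sets) were higher in each set without reaching 2-fold in all of them. Hepatocyte cluster 17 alone had Hc at 31.6, 0 and 12.2 CPM in sets 2, 3 and 4, below the lowest Krt8/Sox9 value of 66.2 CPM. With the median of all tested genes, -0.28 here, set to 0, the count of higher members was 6. The members' own median was 0.20, Cd59a was at 0.00 and Cr1l at -0.42, and the receptors were not tested because of the filter. Of 9 other pathway genes tested, Cpb2 (2.48) and Cpn2 (1.11), a carboxypeptidase that inactivates C3a and C5a and a carboxypeptidase subunit, were higher in hepatocyte-like cells.

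Hepatocyte-like cells fell into clusters 4 and 17, and the pair was compared after their C3 levels had been seen. C3 was at 2381, 1238 and 2067 CPM in cluster 4 and at 44.2, 102.8 and 126.7 CPM in cluster 17 (sets 1, 2 and 4), without overlap. Of 22 members tested, 13 were higher in cluster 4, against 9.05% of 4265 genes, and 0 were lower, against 1.48%. The higher members were C1ra, C1s1, C2, C4b (3.46), C3 (3.93), Cfb (3.99), Hc (3.32), C8a (1.31), C9 (1.59), Cfi (3.89), Serping1 (2.53), C4bp (2.21) and Clu (3.96). C3 had guided the choice of the pair, so its call was not independent of that choice. Mbl1 (0.44), C8g (0.79), Masp2 (1.54) and Mbl2 (2.04) were not called. Alb moved with them, at 67380 against 10490 CPM (2.66), while Fabp1, a fatty acid carrier of hepatocytes, was at 1514 against 9438 CPM (-2.19), and the median depth was 2355 against 1127 UMIs. The part of depth in these differences was not tested.

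When the Kupffer class was compared with monocyte/macrophage-like cells, 14 members were tested and 6 were higher in Kupffer cell-like cells, against 3.51% of 5264 genes. They were Fcna with a log2 ratio of 5.23 (4.70 to 5.96), C6 with 4.72 (3.90 to 4.96), C4b with 2.62 (2.40 to 3.0), Cfp with 2.57 (2.09 to 2.95), C1qc with 1.52 (1.40 to 1.90) and C1qa with 1.36 (1.16 to 1.66). C1qb was not called, at 0.77 (-0.04 to 1.31). No member was lower, against 2.03% of genes, with C5ar1 at -1.19 (-1.48 to -0.79), C3 at -0.86 (-1.79 to 0.10), C3ar1 at -0.04, Cr1l at -0.44, Cd55 at 1.36 (-0.60 to 2.09) and Clu at 0.93. Without set 4, C5ar1 was at least 2-fold lower in every set. The median was 0.20 over all genes and 1.14 over the members tested. Among 9 other pathway genes, Vsig4, a macrophage receptor for C3b, was higher (5.15), and Itgam, the alpha chain of complement receptor 3, was lower (-1.72).

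**Figure D4:**
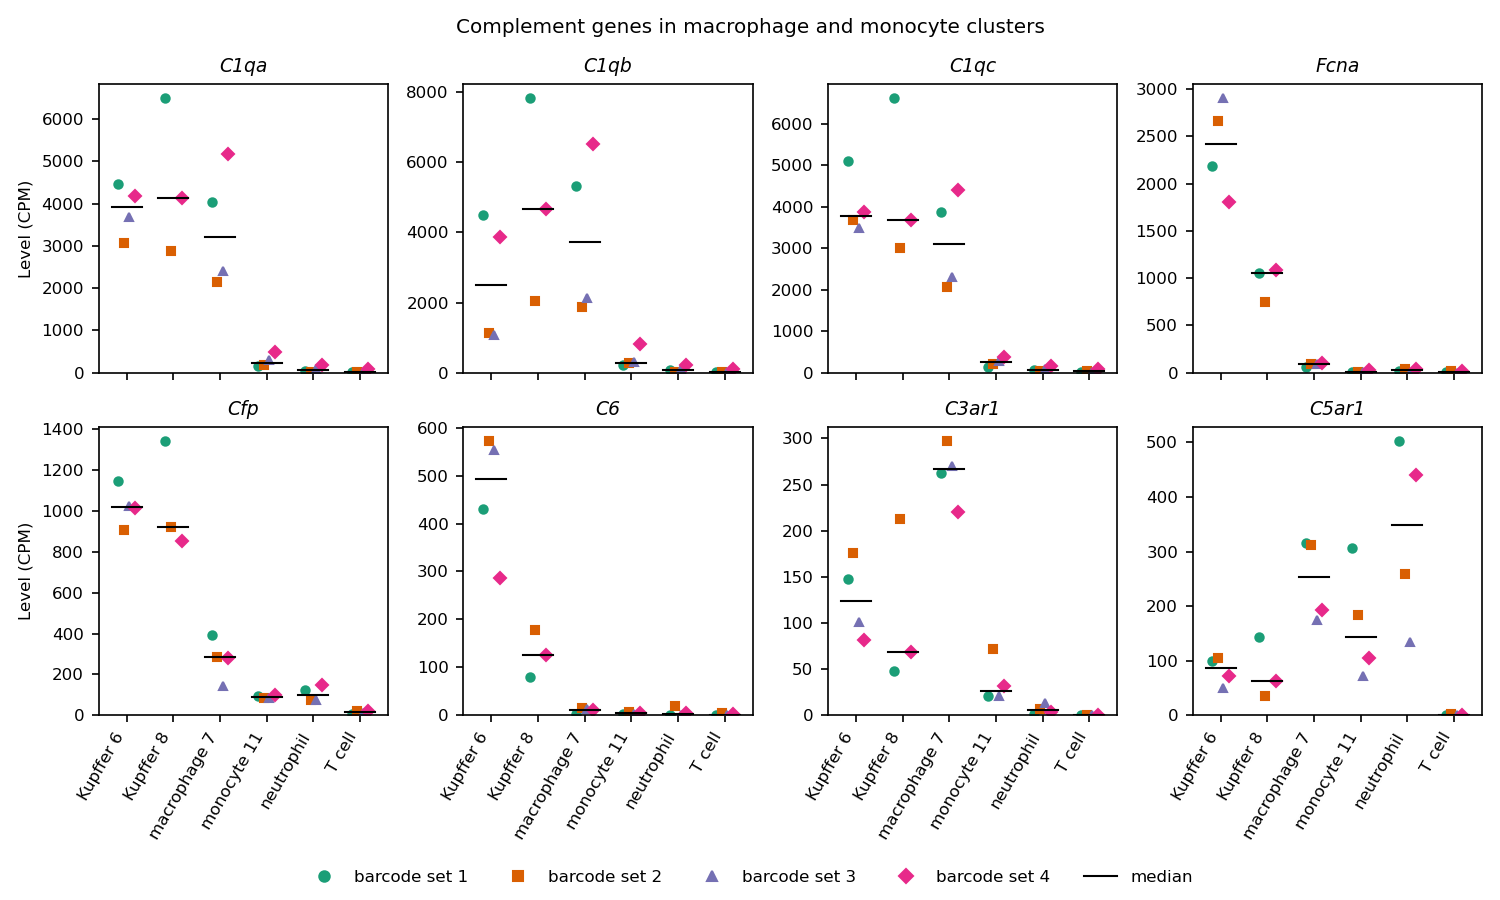
CPM (linear axis) of 8 complement genes in Kupffer cell-like clusters 6 and 8, monocyte/macrophage-like clusters 7 and 11, neutrophil-like cells and T cell-like cells, with 1 marker per barcode set and a line at the median. C1qa and C1qc overlapped between clusters 6 and 7, C1qb was lower in cluster 6 than in cluster 7 in each set, and all 3 chains were lowest of these macrophage clusters in cluster 11, while Fcna, Cfp and C6 were highest in the Kupffer clusters.

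The monocyte/macrophage-like class held cluster 7, led by Gpnmb and Trem2, and cluster 11, led by Chil3 and F13a1, and this pair too was chosen after its C1q levels had been seen. C1qa was at 4044, 2157, 2398 and 5185 CPM in cluster 7 and at 160.0, 169.6, 296.6 and 497.1 CPM in cluster 11. Of 12 members tested, 5 were higher in cluster 7, against 2.5% of 4836 genes: C1qa (3.48), C1qc (3.35), C1qb (2.92), C3ar1 (2.80) and Fcna (2.21). The C1q chains in this count had guided the choice of the pair, so their calls were not independent of that choice. No member was lower, against 1.99%, and C3 was at -1.70 (-2.21 to -0.93), from 65.2 and 186.8 CPM. When Kupffer cell-like cells were set against cluster 7 alone, the C1qa and C1qc calls were lost, with ratios of 0.29 and 0.47. Between Kupffer cell-like cluster 6 and cluster 7, compared for the same reason, 4 of 14 members were higher in cluster 6 (Fcna 4.71, C6 4.56, C4b 2.76 and Cfp 1.72), against 2.72% of 5286 genes. C5ar1 was lower (-1.53), against 0.965% of genes, and C1qa (0.32), C1qc (0.49) and C3ar1 (-1.06) were not called. C1qb was lower in cluster 6 in each set without reaching 2-fold, at -0.73 (-0.98 to -0.24), from medians of 2509 and 3723 CPM. Kupffer cell-like cluster 8 had C1qb at 7824, 2055 and 4657 CPM in sets 1, 2 and 4, against 5322, 1875 and 6512 CPM in cluster 7.

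Kupffer cell-like cells were also set against endothelial cell-like cells, their neighbours in the sinusoid. Of 16 members tested, 9 were higher in Kupffer cell-like cells, against 8.45% of 6307 genes: Fcna (5.73), C1qc (5.70), C1qa (5.60), Cfp (5.05), C1qb (5.00), C6 (4.90), C3ar1 (3.12), C4b (2.92) and C5ar1 (2.47). Lower were 3, against 11.1%: Cd59a (-4.17), Masp1 (-3.99) and Cd55 (-3.02, with -5.73 to -2.70 over the sets). C3 (0.85), Cfb (0.69), Clu (0.13) and Cr1l (-0.66) were not called. Of 7 other pathway genes, Vsig4 (5.45) and Itgb2 (2.80), the beta chain of complement receptors 3 and 4, were higher, and Cd93, an endothelial surface lectin once described as a C1q receptor, was lower (-4.03).

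Neutrophil-like cells differed from monocyte/macrophage-like cells by lower C1q and C3ar1. Of 12 members tested, 4 were lower, against 4.28% of 4813 genes: C1qa (-4.12), C1qb (-4.08), C1qc (-4.07) and C3ar1 (-3.05, with -3.64 to -2.47). None was higher, against 2.93%, with C5ar1 at 0.47 (-0.02 to 1.71), C3 at -0.11, Cfp at -0.55, Fcna at -0.50 and Clu at 0.44. With neutrophil cluster 0 alone, a setting chosen after its C5ar1 level was seen, 2 members were higher, C5ar1 (1.70) and Cd55, and with cluster 3 alone none was. The count of lower members was 4 with either neutrophil cluster. For either cluster alone, the share of all tested genes that were called was not computed, so these counts have no background. Within the monocyte/macrophage class, cluster 7 held 10776 C1qa UMIs and 671 C3ar1 UMIs, and cluster 11 held 1958 and 161. Cluster 11 had C1qa at 160.0, 169.6, 296.6 and 497.1 CPM and C3ar1 at 21.2, 71.6, 21.0 and 31.8 CPM. Neutrophil-like cells were not compared with cluster 11 alone. Of 10 other pathway genes, Fcnb, the ficolin of neutrophils and monocytes, was higher (3.62), and Cd93 was lower (-1.71).

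Between B cell-like and T cell-like cells, 10 members were tested and 2 were higher in B cell-like cells, against 4.23% of 4780 genes: Cd55 with 2.70 (2.44 to 3.08) and Cr2 with 2.15 (1.91 to 2.47). None was lower, against 4.54%. C3 (0.52), C1qa (0.39), C1qb (0.45), Clu (0.34), C4bp (0.22) and Cr1l (-0.04) were not called. Of 3 other pathway genes, Itgb2 was lower (-1.81).

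Because droplets also capture free RNA, each member was set against Alb, counted in the same class and set, and compared with the same ratio in hepatocyte-like cells. Alb itself was at 210.8, 2959, 259.1 and 1485 CPM in T cell-like cells, so the level of hepatocyte RNA in a class that should lack it differed between sets. In T cell-like cells the ratio to Alb was 1.48 times that of hepatocyte-like cells for Cfi, 1.63 for C4bp, 1.04 for Serping1, 2.24 for C8g and 1.79 (1.16 to 2.52) for C3, with 1.70 for Apoa1, a hepatocyte gene outside complement. C4b in Kupffer cell-like cells stood at 32.9 times (12.5 to 83.1), above its value of 2.52 in T cell-like cells. C3 was at 13.8 times (2.94 to 37.3) in monocyte/macrophage-like cells and at 2.25 times in Kupffer cell-like cells. Cfb in monocyte/macrophage-like cells was at 16 times (4.56 to 68.6). In the Krt8/Sox9 epithelial cluster Clu was at 37.4, Serping1 at 7.32, Cfb at 7.12 and C3 at 5.90 times, while C8g was at 0.523 times. How much of the low levels in immune classes was free RNA was not tested.

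**Figure D5:**
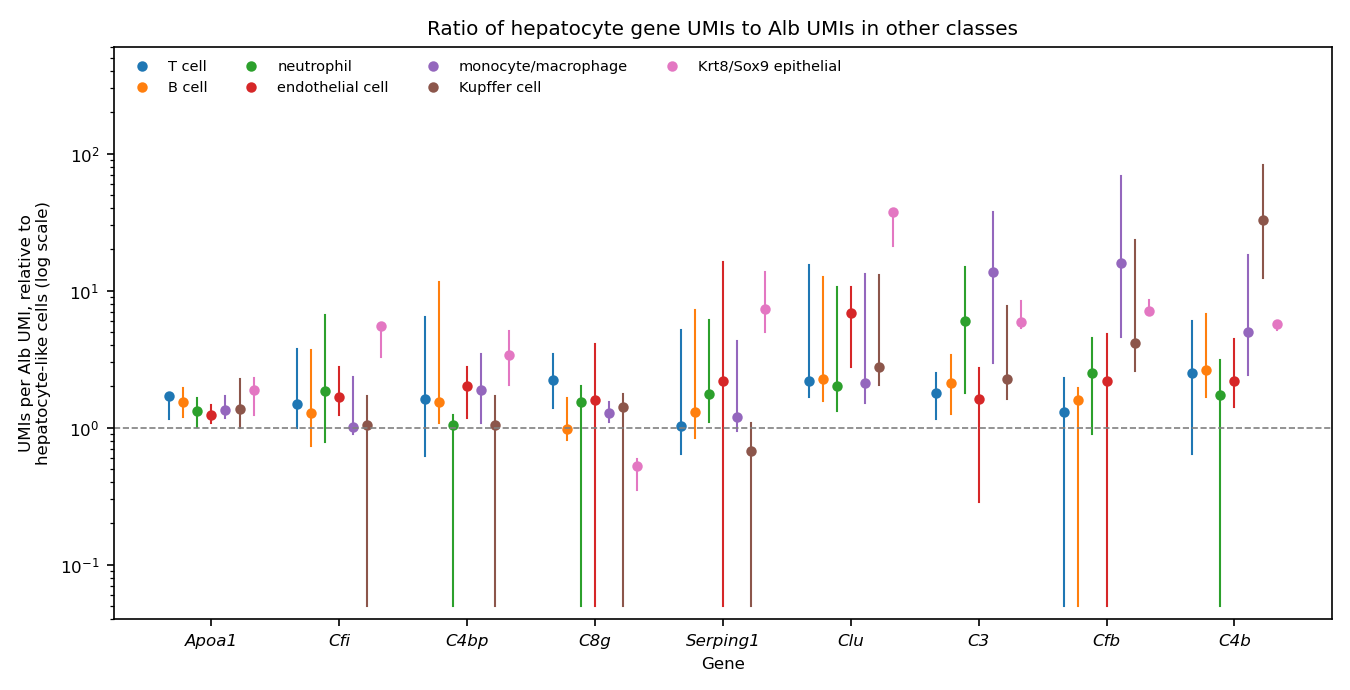
UMIs of 9 genes per Alb UMI in 7 classes, relative to the same ratio in hepatocyte-like cells (log axis; the point is the median over barcode sets and the line runs from the lowest to the highest set, with lines drawn down to 0.05 standing for 0). T cell-like cells had medians of 1.04 to 2.52 times for these genes, while C4b in Kupffer cell-like cells and Clu in the Krt8/Sox9 epithelial cluster had medians above 30 times.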

How the data were processed

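The table deposited by the authors holds natural log values per gene and cell. Read from the values, each is ln(1 + UMIs/total × 10000): after exponentiation every cell summed to 10000, and 100% of values were whole multiples of 1 UMI within 0.001, which returned the UMI counts used here. CASAVA 1.8, Cell Ranger, Seurat and mm10 are named per the submitters' processing notes; their other versions are not given. All 24802 cells were kept. No doublet caller was run; removing the highest 5% of UMIs per class and set was an alternative.

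Cells were clustered with scanpy 1.11.5 (Python 3.11.15, numpy 2.4.6, scipy 1.17.1, pandas 2.3.3, anndata 0.12.19, scikit-learn 1.9.0, python-igraph 0.11.9, matplotlib 3.10.9) on 2000 variable genes without complement and pathway genes, 30 principal components, 15 neighbours and Leiden resolution 1.0 (seed 1). Of the 26 clusters, those led by cycling genes or with under 3 raised markers stayed unnamed. So did those with another marker list at 0.75 or more of the best score, and shallow clusters with no marker among their leading genes. The cycling list was left out of the second-list rule, so cluster 8 (Kupffer score 2.57, cycling score 2.08) kept its name. The unnamed clusters held 523 cells. One of these, cluster 23, carried both Kupffer and endothelial markers, with C1qa at 1584, Masp1 at 97.8 and Cd59a at 210 CPM. B cell-like clusters 9, 10 and 22 came from different sets.

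Shares used cells thinned to 500 UMIs; shallower cells were left out. Intervals are 95% Clopper-Pearson or exact Poisson, and 3 UMIs set the limit for a count of 0. Scripts were tested on simulated data. Named were all called members and, per role, the 2 with the highest mean level; others were chosen after their values were seen. Members and lists were chosen with earlier results of these data known. The planned limma genotype fit was not run, since no source used here ties cells to samples. Gene positions are from GENCODE vM21 (GRCm38) and promoters from RefSeq (GRCm38.p6).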

Additional observations from a re-analysis of the deposited data

How the results depend on the processing

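No paired analysis was possible because no source used here ties the cells to the numbered samples. Members at least 2-fold higher in hepatocyte-like cells than in the Krt8/Sox9 epithelial cluster numbered 3, and 6 with a pseudocount of 1 CPM, 1 with a pseudocount of 50 CPM, 1 with a filter of 100 CPM, 5 in cells with at least 500 genes, 6 with the median of all genes set to 0, 6 with hepatocyte cluster 4 alone and 3 to 5 when each barcode set was left out in turn. Members lower in Kupffer cell-like than in monocyte/macrophage-like cells numbered 0, and 1 (C5ar1) with means over cells, with members used for clustering or against cluster 7 alone, and 0 to 1 over the left-out sets. Members higher in neutrophil-like than in monocyte/macrophage-like cells numbered 0, 1 (C5ar1) with means over cells, and 2 with neutrophil cluster 0 alone. For B cell-like against T cell-like cells the count of 2 was 1 with a pseudocount of 50 CPM, with a filter of 100 CPM and in cells with at least 500 genes, since Cr2 was lost. The 8 members highest in the stellate/fibroblast/mesothelial-like class were 1 at Leiden resolution 0.5 and 0 to 8 over the left-out sets, since set 3 held 42 of its 48 cells. The filter tests fewer genes and a left-out set leaves fewer sets to pass, and for the other settings the cause was not tested. Members higher in Kupffer cell-like than in monocyte/macrophage-like cells numbered 6, 4 against cluster 7 alone and 8 against cluster 11 alone. The share of all genes called was not computed again for any of these settings. The other summary counts stayed within 1.5 times. Of single values, 119 moved by more than their spread (31 of them shares, which rise without thinning), 28 log2 ratios passed the 2-fold rule that had not, 14 no longer did, 1518 did none of these, and no called value changed sign. The settings with cluster 0, 3, 4, 7 or 11 alone and without shared barcodes were chosen after seeing the data. Sets 2 and 3 were shallow, with 49.4% and 45% of cells under 500 genes, and Cd46, C8b and Colec11 are limited by their UMIs.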

Other observations

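Other pathway genes marked single classes. Vsig4, a Kupffer cell receptor for C3b, was at 1790, 1949, 1282 and 1076 CPM in Kupffer cell-like cells in barcode sets 1, 2, 3 and 4. Cd93 was at 265.4, 373.1, 476.5 and 285.6 CPM in endothelial cell-like cells and had a median of 138.4 CPM in monocyte/macrophage-like cells. C5ar2, the second C5a receptor, was at 125.7, 174.1, 139.0 and 69.2 CPM in endothelial cell-like cells and had a median of 49.7 CPM in Kupffer cell-like cells. Of 381 Fcnb UMIs in all cells, 375 were in neutrophil-like cells, where the level was 176.4, 258.2, 78.0 and 51.3 CPM.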
